A study of Mus musculus with 2 samples.

Results

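Smooth muscle contractile genes encode the actin, myosin and filament-binding proteins with which the muscle layers and vessel walls of the stomach contract. The set described here holds 10 genes: Acta2, Actg2, Tagln, Myh11, Cnn1, Myl9, Mylk, Des, Tpm1 and Tpm2. They were chosen by symbol, and all 10 were found among the 38087 Ensembl genes of the deposited values. The values came from sorted stomach parietal cells of C57BL/6 mice, the cells of the gastric glands that secrete acid. One library came from mice on a high fat diet (HFD) and one from control mice, with no other genotype or treatment named for either. The number of mice, their age, the length of the diet and the sorting markers are not stated in the sources used here. With 1 library per diet no difference between diets could be tested, and each difference below is between these 2 libraries. Where a pair of values is given, the HFD library comes first.

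Contraction in smooth muscle is switched on from the myosin side. Calcium and calmodulin activate myosin light chain kinase (Mylk), which phosphorylates the regulatory light chain (Myl9) of smooth muscle myosin (heavy chain Myh11), and the myosin then pulls on filaments of alpha and gamma smooth muscle actin (Acta2, Actg2). Tropomyosins (Tpm1, Tpm2), calponin (Cnn1) and transgelin (Tagln) bind along the actin filament, and desmin (Des) forms the intermediate filaments that hold the contractile units together. Epithelial cells such as parietal cells build their filaments mainly from the nonmuscle members of the same families, and the tropomyosin genes also make nonmuscle forms through alternative promoters and exons.

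In the HFD library 9 of the 10 genes were lower than in the control library, and Tpm1 alone was higher. The levels are RPKM, reads per kilobase of gene per M reads. A gene at or below the floor of 1 RPKM is listed at 0. On the log2(RPKM + 1) scale 8 of the 10 were over 2-fold lower, against 23.9% of all 16037 measured genes and 20.1% of measured protein-coding genes. None was over 2-fold higher, against 12.5% of all measured genes and 8.02% of coding ones. Counting any size, 56% of measured coding genes were lower. Only Tpm2 was listed in the control library alone, as were 12.4% of measured coding genes. The median difference of the 10 genes, HFD minus control, was -2.10 on this scale, and that of all measured genes was -0.13. Without a pseudocount, over the 9 genes listed in both libraries, 7 were over 2-fold lower, against 12.5% of 9997 protein-coding genes. The same 7 had a whole 95% counting interval beyond 2-fold, against 8.72%. Beyond 4-fold lower were 5 of the 9 (Tagln, Actg2, Acta2, Myh11 and Myl9), against 2.13% of those coding genes. The summed level of the 10 genes was 134 RPKM (HFD) and 289 RPKM (control). Without Tpm1 the sums were 36.4 and 234 RPKM, a 6.43-fold lower level in the HFD library. In such bulk RNA, fewer smooth muscle cells and less RNA per cell cannot be told apart.

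**Figure D1:**
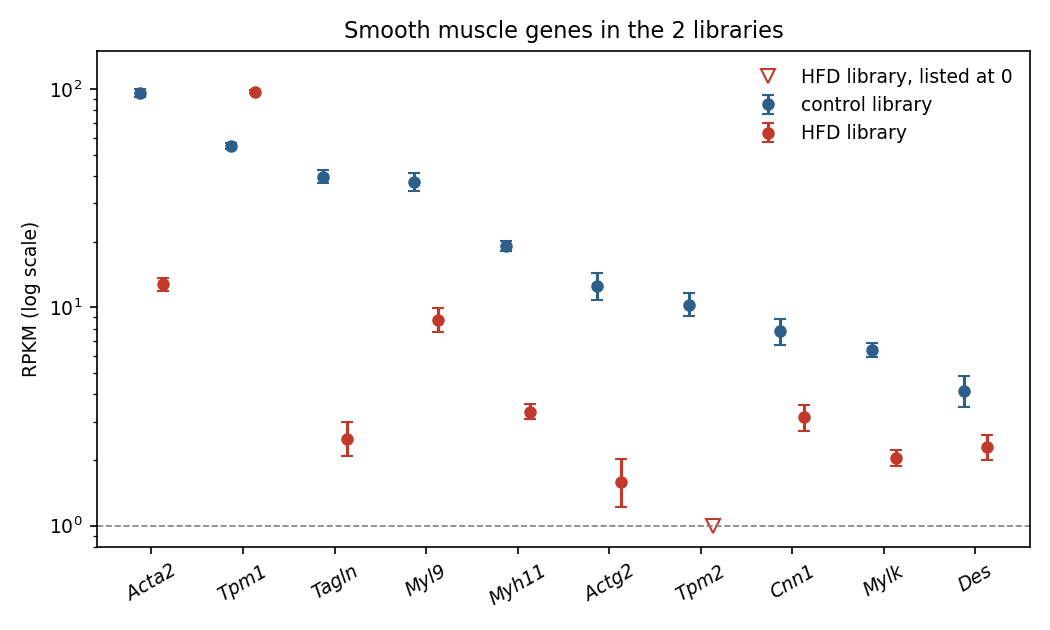
Level of each smooth muscle gene (RPKM, log axis) in the control library (blue) and the HFD library (red), with approximate 95% counting intervals. The red triangle marks Tpm2, listed at 0 and drawn at the floor of 1 RPKM (dashed line). In 9 genes the control value lies above the HFD value, and Tpm1 stands at 97.31 RPKM (HFD) against 55.0 RPKM (control).

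The 2 smooth muscle actins were lower in the HFD library by nearly the same factor. Acta2 (ENSMUSG00000035783, chromosome 19, 34241090 to 34255590, mm10), which encodes alpha smooth muscle actin of vessels and muscle layers, had 12.77 RPKM (HFD) and 96.07 RPKM (control). It was 7.53 times lower in the HFD library, with an interval of 6.91 to 8.20. Actg2 (chromosome 6, 83512905 to 83536265), the gamma actin of visceral smooth muscle, stood at 1.58 and 12.47 RPKM. It was 7.88 times lower (5.88 to 10.6). Their intervals overlap, so the factors of the actins cannot be told apart at this depth. Of the 9997 protein-coding genes listed in both libraries, 46 had a lower ratio than Acta2 and 43 a lower ratio than Actg2. Acta2 stood above 97.9% of the listed coding genes in the control library and above 69.0% of them in the HFD library.

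Actin genes resemble each other closely, and reads that fit several of them could be mixed by a counting rule that the sources used here do not state. The last 60 coding bases are shown for the 2 smooth muscle actins and their nonmuscle relatives Actb and Actg1, 5′ to 3′, with each base that differs from Acta2 in capitals. They lie at chr19:34241667-34241726, chr6:83512985-83513044, chr5:142903798-142903857 and chr11:120346390-120346449 in GRCm38, all on the minus strand.
Acta2: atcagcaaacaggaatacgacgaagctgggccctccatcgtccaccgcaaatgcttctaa
Actg2: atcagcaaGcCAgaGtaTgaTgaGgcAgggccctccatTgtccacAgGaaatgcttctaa
Actb: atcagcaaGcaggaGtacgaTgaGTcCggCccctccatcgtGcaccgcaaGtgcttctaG
Actg1: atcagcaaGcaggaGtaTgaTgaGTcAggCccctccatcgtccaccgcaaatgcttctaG
Against Acta2 these stretches differ at 11, 10 and 9 positions, spread along the window. Over the whole coding sequence Acta2 was 84.2% identical to Actg2, with 29 bases as the longest shared run, and 81.5% identical to Actg1, with a run of 56 bases. Of 2146 stretches of 50 bases in Acta2 transcripts 7 also occur in another gene, and of 1592 in Actg2 none does. Stretches of that length thus separate these actins almost everywhere; the read length is not stated in the sources used here.

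The myosin motor and its control were lower in the HFD library at all 3 steps. Myh11 (chromosome 16, 14194535 to 14291372), the smooth muscle myosin heavy chain and a defining marker of the cell type, had 3.32 RPKM (HFD) and 19.1 RPKM (control). It was 5.76 times lower (5.24 to 6.33). Myl9 (chromosome 2, 156775420 to 156781658), the regulatory light chain, stood at 8.79 and 37.54 RPKM and was 4.27 times lower (3.66 to 5.01). Mylk (chromosome 16, 34745210 to 35002420), whose gene makes both muscle and nonmuscle forms of the kinase, stood at 2.03 and 6.40 RPKM and was 3.15 times lower (2.82 to 3.52). On the opposite strand, the antisense genes E130310I04Rik and Gm21691 overlap 4.87% and 1.99% of the exon length of Mylk. Counting both strands, 511 of 11202 stretches of 50 bases in its transcripts also occur in another gene. The motor, the light chain and the kinase thus stood in descending order of factor, and their intervals do not overlap. Myh11 rested on an estimated 643 reads (HFD) and 1428 reads (control), although the HFD library was the deeper one.

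Many smooth muscle genes are known targets of serum response factor, which binds the CArG box. Promoter windows of 250 bases before the RefSeq start (GRCm38.p6) were at hand for 7 of the 10 genes. A CArG box with at most 1 G or C in its A/T core, a form that reads the same way on both strands, was found in 2 of the 7, Acta2 and Myl9, against 8.59% of all 32851 windows. The strict box was found in Myl9, against 1.47% of windows. The Myl9 stretch up to its first annotated exon, chr2:156775214-156775419 on the plus strand, is shown with its boxes in capitals because it holds the strict one. The Acta2 boxes are shown within 30 bases each, at chr19:34255438-34255467 and chr19:34255388-34255417 on the minus strand, since they lie in an exon that GENCODE annotates at the 5′ end of the gene.
Myl9: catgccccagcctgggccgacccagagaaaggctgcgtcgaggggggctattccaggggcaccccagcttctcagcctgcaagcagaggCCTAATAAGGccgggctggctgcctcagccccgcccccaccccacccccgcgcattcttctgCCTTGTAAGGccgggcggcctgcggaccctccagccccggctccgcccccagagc
Acta2, distal: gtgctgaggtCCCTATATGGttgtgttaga
Acta2, proximal: cgtctttgctCCTTGTTTGGgaagcgagtg
These are matches of letters only. No box was found in the windows of Cnn1, Mylk, Des, Tpm1 and Tpm2, which says only that these letters are not in those 250 bases.

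Of the proteins that bind along the actin filament, transgelin and calponin were lower in the HFD library. Tagln (chromosome 9, 45929619 to 45936058), which encodes transgelin, had 2.50 RPKM (HFD) and 39.73 RPKM (control). At 15.9 times lower (13.1 to 19.3) it had the lowest ratio of the 9 genes of the set listed in both libraries. Of the 9997 coding genes 8 had a lower one. Of its exon length, 62.4% is overlapped on the opposite strand by the antisense gene Gm48529, so without a stated strand rule its value may include antisense reads. Pcsk7, a measured gene on the opposite strand, overlaps another 5.43% and stood at 24.1 and 26.4 RPKM, above Tagln in the HFD library. Cnn1 (chromosome 9, 22099216 to 22109630), the smooth muscle calponin, stood at 3.13 and 7.78 RPKM and was 2.49 times lower (2.04 to 3.02).

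The 2 tropomyosin genes differed in direction. Tpm2 (chromosome 4, 43514711 to 43523765) was listed at 0 in the HFD library; its control level was 10.29 RPKM, on about 295 reads. A gene of its length could hold up to about 74.2 reads in the deeper HFD library and still be listed at 0, so no exact fold is given. With that 0 entered as the floor of 1 RPKM, its log2 difference was -3.36. A level below the floor would make the deficit larger. Among coding genes between 5 and 20 RPKM in the control library 2.62% were listed at 0 in the HFD library. Tpm1 (chromosome 9, 67022590 to 67049406) had 97.31 RPKM (HFD) and 55.0 RPKM (control), 1.77 times as high (1.71 to 1.84). Its estimated 16089 and 3509 reads made it the most deeply covered gene of the set. The deposited value pools the 21 transcripts annotated for Tpm1, so muscle and nonmuscle forms cannot be told apart in it.

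Des (chromosome 1, 75360329 to 75368579), the muscle intermediate filament, had 2.28 RPKM (HFD) and 4.13 RPKM (control). It was 1.81 times lower (1.46 to 2.24), and its interval reached across 2-fold. This was the smallest deficit of the 9 lower genes, and 15.7% of coding genes listed in both libraries had a lower ratio. The antisense gene Gm15179, listed at 0 in both libraries, overlaps 5.86% of the exon length of Des. Desmin was also the lowest of the 10 genes in the control library.

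**Figure D2:**
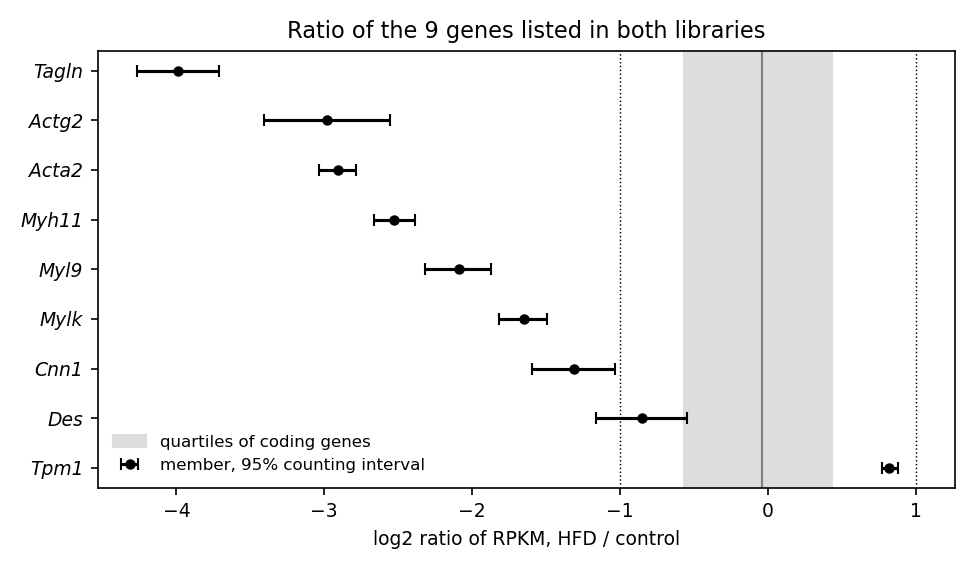
log2 ratio of RPKM (HFD over control) for the 9 genes listed in both libraries, with approximate 95% counting intervals. The grey band spans the quartiles of 9997 protein-coding genes (-0.57 to 0.43), the grey line their median (-0.04) and the dotted lines 2-fold; 7 intervals lie wholly below 2-fold lower, and Tpm1 lies at 0.82.

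**Figure D3:**
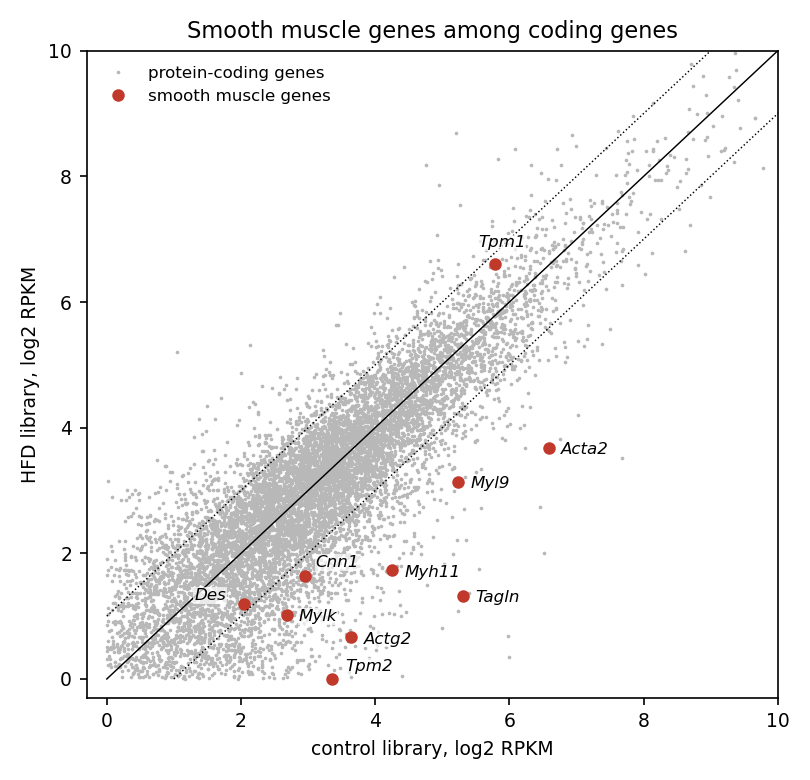
log2 RPKM of protein-coding genes listed in both libraries (grey) and of the smooth muscle genes (red), control library on the horizontal and HFD library on the vertical axis, both shown up to 10. The solid line marks equal values and the dotted lines 2-fold; Acta2, Tagln, Myh11, Myl9, Actg2, Mylk, Cnn1 and Tpm2 lie below the lower dotted line, and Tpm2 is drawn at 0 because it is listed at 0 in the HFD library.

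The order of the genes by level per length differed between the libraries. In the control library Acta2 led at 33.3% of the summed level, followed by Tpm1 at 19.1%, Tagln at 13.8%, Myl9 close behind it and Myh11 at 6.62%. The intervals of Tagln and Myl9 overlapped, as did those of Actg2 and Tpm2 and those of Cnn1 and Mylk; the other neighbours were apart by counting error. In the HFD library Tpm1 held 72.8% of the sum, Acta2 9.55% and Myl9 6.58%. The next 6, from Myh11 at 3.32 to Actg2 at 1.58 RPKM, overlapped each with its neighbour. Tagln ranked below Cnn1 in the HFD library and above it in the control library.

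Levels set against related genes inside the same library do not depend on how a library was scaled. Acta2 stood at 2.92% of Actb, the abundant nonmuscle beta actin, against 13.8% in control. Actg2 stood at 0.276% and 4.41% of Actg1, the nonmuscle gamma actin. The relation of Actg2 was thus 16.0 times lower, in part because Actg1 itself stood at 574 RPKM against 282 RPKM, 2.03 times its control level. Myh11 stood at 3.57% and 25.8% of the nonmuscle heavy chain Myh9, and Myl9 at 9.39% and 59.7% of the nonmuscle light chain Myl12b. Tagln stood at 1.32% and 17.9% of its broadly expressed relative Tagln2, and Cnn1 at 4.07% and 9.38% of Cnn3. These 6 relations were 2.31 to 16.0 times lower in the HFD library. The Cnn1 relation depends on the relative chosen. Cnn2, another nonmuscle calponin, was itself 2.90 times lower (1.21 against 3.52 RPKM), and Cnn1 2.49 times.

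Tpm1 and Des were the exceptions. Tpm1 stood at 192% of the nonmuscle tropomyosin Tpm4 (HFD) and 124% (control). Des stood at 26.4% and 19.0% of Vim, the intermediate filament of mesenchymal cells, which was itself 2.50 times lower, at 8.67 against 21.7 RPKM. Tpm2 stood at 40.6% of Tpm3 in the control library. Mylk was not set against a relative.

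**Figure D4:**
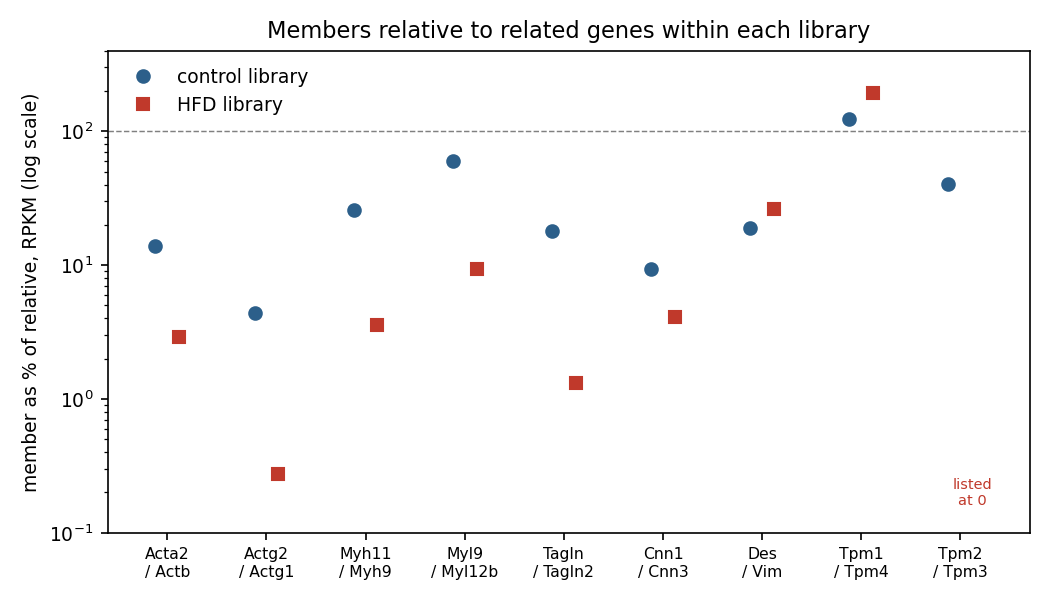
Each smooth muscle gene except Mylk, as a percentage of a related gene in the same library (RPKM, log axis). Blue circles are the control library and red squares the HFD library. Acta2, Actg2, Myh11, Myl9, Tagln and Cnn1 stand lower in the HFD library, Des and Tpm1 higher, and Tpm2 is listed at 0 there.

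The nonmuscle relatives had a median difference close to 0. Of 16 genes 14 were measured, 7 of them higher and 7 lower, and their log2(RPKM + 1) median was 0.02. Over 2-fold lower were 3 of the 14, against 23.9% of all measured genes. Actb stood at 437 against 695 RPKM, Actg1 at 574 against 282 RPKM, Tagln2 at 189 against 222 RPKM and Myl6, an essential light chain of muscle and nonmuscle myosin, at 192 against 154 RPKM. Myh10, a nonmuscle heavy chain, had 2.03 RPKM in the control library and was listed at 0 in the HFD library. So were 30.5% of coding genes between 1 and 5 RPKM in the control library. The median was -0.53 when the 20 most abundant genes were left out of the scaling total, where that of all genes was -0.60.

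Other smooth muscle genes, which regulate, anchor or signal to the contractile apparatus, were measured in 28 of 38 cases. Of the 28, 19 were lower, against 56% of measured coding genes, and the median was -0.59. Over 2-fold lower were 12, against 23.9% of all measured genes and 20.1% of coding ones. Of these 12, 9 were listed at 0 in the HFD library and so passed 2-fold by construction. All 9 had control levels between 1 and 5 RPKM, where 30.5% of coding genes were listed at 0 in the HFD library. Over the 19 genes listed in both libraries the median log2 ratio was -0.01. Several broadly expressed members were the most abundant: Rhoa, a small GTPase that acts on the cytoskeleton, at 132 against 73.1 RPKM, Itgb1, an integrin subunit, at 62.0 against 45.3 RPKM, Atp2a2, the calcium pump of the endoplasmic reticulum, at 53.5 against 50.1 RPKM, and Csrp1, a LIM protein, at 58.3 against 100.5 RPKM. Pdlim3, a protein of the actin anchorage in muscle, had the lowest difference (listed at 0 against 4.71 RPKM).

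Further genes of that list are given here, chosen after their values were seen. Smtn, smoothelin of contractile smooth muscle, stood at 5.38 against 15.45 RPKM and was 2.87 times lower (2.57 to 3.21). Lmod1, leiomodin, Ppp1r14a, an inhibitor of myosin phosphatase, and Synpo2 were listed at 0 in the HFD library and stood at 2.49, 2.59 and 2.02 RPKM in the control library. The genes of myosin phosphatase and of the kinases that inhibit it differed less: Ppp1r12a had a ratio of 0.826, Ppp1r12b 0.992, Ppp1cb 1.06, Rock1 1.65 and Rock2 1.00.

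Of 16 genes that control smooth muscle transcription 14 were measured, 5 of them higher and 9 lower, with a median of -0.13, which to 2 decimals is that of all genes. Gata6 stood at 35.65 against 34.65 RPKM, Tgfbr2, a receptor for TGF-beta, at 28.0 against 17.5 RPKM, Smad3, its signal transducer, at 14.2 against 9.92 RPKM and Mrtfa, a cofactor of serum response factor, at 10.2 against 11.4 RPKM. Over 2-fold lower were 5 of the 14, against 23.9% of all measured genes and 20.1% of coding ones: Srf, Foxf1, Barx1, Tgfb1 and Wwtr1. All but Srf were listed at 0 in the HFD library and so passed 2-fold by construction. Their control levels lay between 1 and 5 RPKM, where 30.5% of coding genes were listed at 0 in the HFD library. Apart from Foxf1, the genes over 2-fold lower are named after their values were seen. Srf, serum response factor itself, stood at 2.91 against 10.6 RPKM, 3.63 times lower (3.04 to 4.34). Foxf1 and Barx1, both factors of the stomach mesenchyme, were listed at 0 in the HFD library and stood at 3.07 and 2.90 RPKM in the control library. Tgfb1, a TGF-beta ligand, and Wwtr1, a transcriptional coactivator, were at 0 in the HFD library too, with control levels of 1.16 and 2.38 RPKM. Myocd, the smooth muscle cofactor myocardin, was listed at 0 in both libraries.

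**Figure D5:**
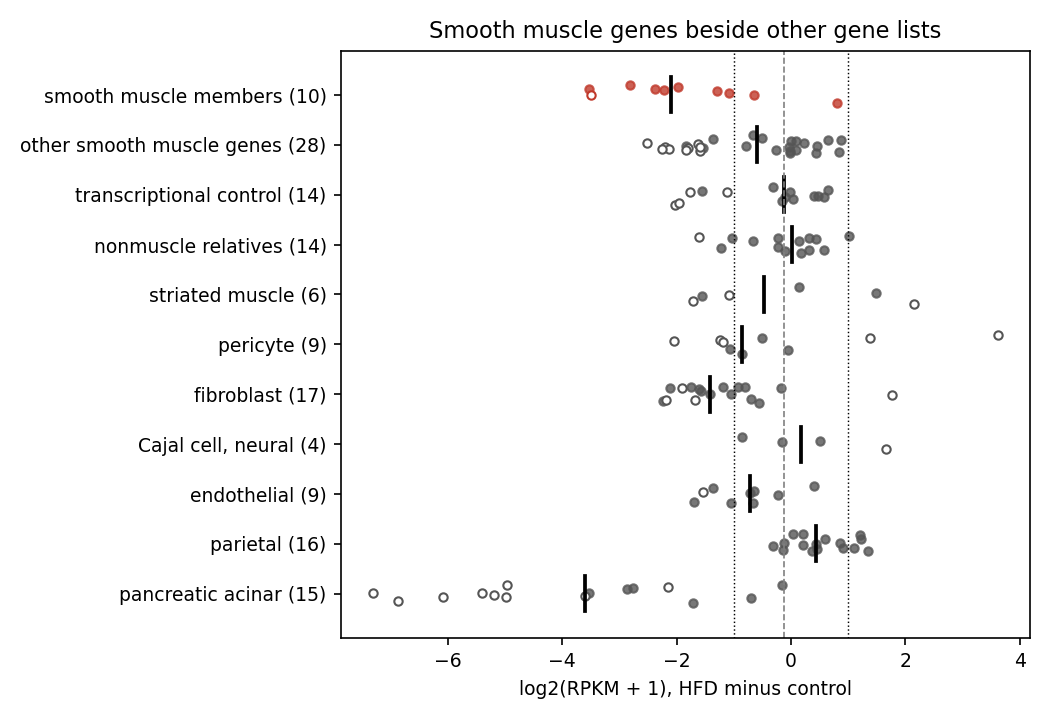
Difference between the libraries on the log2(RPKM + 1) scale (HFD minus control) for each measured gene of the smooth muscle set (red) and of 10 other lists (grey), with the number measured in brackets. Bars are list medians, open points genes listed at 0 in 1 library, the dashed line the median of all measured genes (-0.13) and the dotted lines 2-fold.

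Markers of other cells also differed between the libraries. For comparison, 56% of measured coding genes were lower in the HFD library at any size, and 23.9% of all measured genes were over 2-fold lower. Among coding genes between 1 and 5 RPKM in the control library 30.5% were listed at 0 in the HFD library. Fibroblast and matrix genes were lower in 16 of 17 measured cases, with a median of -1.42 and 11 over 2-fold lower. Their summed level was 98.4 RPKM (HFD) and 241 RPKM (control). Col3a1, a fibrillar collagen, was 2.10 times lower and Col6a1, a collagen of the pericellular matrix, 5.54 times lower. Sparc, a matrix glycoprotein, stood at 17.25 against 33.6 RPKM and Col1a1 at 7.96 against 28.9 RPKM, while the defining marker Pdgfra (3.52 RPKM in control) was at 0 in HFD and Thy1 was listed only in HFD. Pericyte genes were lower in 7 of 9 cases, with a median of -0.86 and sums of 65.4 and 82.8 RPKM, mostly from Anpep, which epithelial cells also express. Mcam stood at 1.43 against 4.08 RPKM and Kcnj8, a potassium channel subunit, at 2.24 against 2.37 RPKM. Pdgfrb and Cspg4, defining pericyte markers, were listed at 0 in the HFD library and stood at 3.13 and 1.36 RPKM in the control library. Cox4i2 and Notch3 went the other way, listed only in the HFD library at 11.4 and 1.60 RPKM. Endothelial genes were lower in 8 of 9 cases, with a median of -0.71 and sums of 41.4 and 75.8 RPKM. Plvap, of fenestrated capillaries, was the most abundant and 1.67 times lower (22.6 against 37.6 RPKM). Eng, a TGF-beta coreceptor, was 2.34 times lower and Esam, an adhesion molecule, 1.22 times lower with an interval that starts at 0.993 and so includes equality. Pecam1, another adhesion molecule, had the lowest ratio, 4.72 times below its control level of 7.08 RPKM. Tie1, a receptor kinase, was higher in the HFD library (3.89 against 2.70 RPKM), and Vwf and Cldn5 were listed at 0 in both.

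Genes of interstitial cells of Cajal, enteric neurons and glia were at 0 in both libraries for 12 of 16, among them Elavl4, Sox10 and S100b. The 4 measured had a median of 0.18 and sums of 37.0 and 39.1 RPKM, nearly all from Kit and Ano1. Pancreatic acinar genes were lower in 15 of 15 cases, against 56% of measured coding genes. Their median was -3.61 and their sums were 2013 and 14042 RPKM. Clps, pancreatic colipase, made up most of both sums at 1790 and 12989 RPKM. The next most abundant in the HFD library, Cela1, an elastase, and Pnliprp2, a lipase, differed far less, at 83.6 against 92.9 RPKM and 80.0 against 131 RPKM. Of the 15, 9 were listed at 0 in the HFD library, among them Ctrb1 and Pnlip. The part of these cell types in the smooth muscle result was not tested.

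Genes of the labelled cell type were among the abundant ones in both libraries. The parietal list was measured in 16 of 16 cases, with 13 higher in the HFD library, against 5271 of 11976 measured coding genes. Its median was 0.44 and its sums were 14193 and 11374 RPKM. Its pump subunits Atp4a and Atp4b stood at 4997 against 4324 and 5639 against 4375 RPKM. In the control library the pancreatic acinar sum of 14042 RPKM was above the parietal sum, and Clps alone was above either pump subunit. The parietal list includes Gif, which in the mouse is a product of chief cells. Against Atp4a, the 10 contractile genes were minor components, each below 100 RPKM in both libraries.

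Acta2 was the member with the highest control level, and the 5 coding genes nearest to it in log2 level over the 2 libraries were Hist1h3c, Ttr, Hist1h2bf, Hist1h3a and Rps27rt, at distances of 0.22 to 0.66. Hist1h3c, a replication-dependent histone gene, stood at 14.1 against 108 RPKM, and Ttr, transthyretin, at 12.8 against 74.9 RPKM. Histone genes have near-identical copies, so their values are uncertain. None of the 5 is a muscle gene. Likeness over 2 libraries is a description of these values.

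The estimated depth was 25.49 M reads for HFD and 9.84 M reads for control. All intervals come from reads estimated at these depths, cover counting error only, and say nothing of variation between mice. No molecular identifiers are named, so several reads may come from 1 molecule and the intervals may be too narrow.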

How the data were processed

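RNA was measured in 2 libraries of sorted parietal cells, 1 per diet; ribosomal RNA was removed before library preparation, per the labels' protocols. The authors deposited log2 values of RPKM, with genes at or below 1 RPKM listed as 0; the columns are headed RPKM, per the file headers, and the log2 scale was read from the values. Bedtools 2.25.0 and mm10 are named in the submitters' processing notes, with no role. The aligner, the counting rule, the strand setting and the annotation are not stated in the sources used here. Symbols, positions and exon-union lengths came from GENCODE M21 (GRCm38, the same assembly as mm10), which matched 36308 of 38087 identifiers.

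Differences are log2(RPKM + 1) in HFD minus control, with genes listed at 0 entered as 0; the pseudocount understates changes of low genes, and a gene listed in 1 library passes 2-fold by construction. A gene was measured when listed in either library. Depth was the step on which RPKM times length fell for single-exon genes. Of the 189 and 724 values checked, at 12 steps or fewer, 49.7% and 36.2% were whole within 0.005. A step fixed beforehand would give 1% by chance. The step was chosen on these values to give the most whole ones, so its share by chance is higher. Ratios carry exact conditional binomial 95% intervals (Clopper-Pearson) and levels exact Poisson ones, from reads estimated as RPKM times length times depth. They are approximate because the lengths come from another annotation. The planned test was none, as 1 library per group allows no test, SD, p-value or replicate check.

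The members and lists were chosen with earlier results of these data known. Named were all members; from each other list up to 4 genes by mean level plus the genes at both ends of the ratios (50 estimated reads or more); and the 5 genes nearest to Acta2. Genes outside this rule, defining markers included, were chosen after their values were seen, and a few genes under it are not reported here. Alternatives covered pseudocount, floor, minimum and scaling. The calculations were tested on simulated data. Python 3.11.15, numpy 2.4.6, pandas 2.3.3, scipy 1.17.1 and biopython 1.88 were used. Promoter sequences are RefSeq's (GRCm38.p6); coding sequences are GENCODE's.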

Additional observations from a re-analysis of the deposited data

How the results depend on the processing

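Under 9 alternatives the 9 lower genes stayed lower and Tpm1 stayed higher wherever the setting gave a value; Tpm1 ranged from 0.25 to 1.10 and Tagln from -3.99 to -3.33. Tpm2 had no value over genes listed in both libraries, and Des none at a minimum of 5 RPKM. The number over 2-fold lower was 7 to 9, and the median difference of the set moved as follows. The median difference of -2.10, with a counting interval of -2.28 to -1.92 from its central genes, became -2.29 with a pseudocount of 0.1 RPKM, -2.31 with a 0 entered as 1 RPKM, -2.56 with the 20 most abundant genes left out of the scaling total and -1.85 with the protein-coding total. The last 2 scalings moved the median of all genes from -0.13 to -0.60 and 0.12, and the set's median stayed below both. Of the 10 other lists 7 had a median below that of all genes (transcriptional control by less than the rounding), 4 at a minimum of 5 RPKM and 5 to 7 under the other settings. Some list medians changed sign: striated muscle (-0.47) to 0.03 with a 0 entered as 1 RPKM and 0.23 over genes listed in both; pericyte (-0.86) to 1.57 at a minimum of 5 RPKM; Cajal and neural (0.18) to -0.17 at that minimum, -0.25 over genes listed in both and -0.25 without the 20 most abundant genes; transcriptional control (-0.13) to 0.01 over genes listed in both and 0.13 scaled to the protein-coding total; nonmuscle relatives (0.02) to -0.53 and parietal (0.44) to -0.12 without the 20 most abundant genes. The cause was not tested. Relations within a library, which leave out Mylk, were lower for 6 of 8 genes, against the relative chosen for each. With Tpm2 included on the log2(RPKM + 1) scale, 7 of 9 were lower. No paired analysis was possible because each diet has 1 library.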

Other observations

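Genes of skeletal and cardiac muscle were at 0 in both libraries for 20 of 26, including Myh6, Myh7, Ttn, Ckm and Tnnt2. Tnni3, the inhibitory troponin subunit of heart muscle, was listed at 359 RPKM (HFD) and 127 RPKM (control), 2.83 times as high (2.72 to 2.95). It stood above every smooth muscle gene described in the report. Its partner genes Tnnt2 and Tnnc1 were listed at 0, and its exons overlap those of Dnaaf3 by 4.17% of their length, a gene at 1.96 and 1.36 RPKM. Tnni2, the fast skeletal form, stood at 3.13 against 11.1 RPKM. Mylpf, a fast skeletal light chain, stood at 1.71 and 1.45 RPKM with a ratio interval of 0.649 to 2.28.

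Of the pericyte genes, 2 were listed in the HFD library only. Cox4i2, a subunit form of cytochrome oxidase used here as a pericyte marker, had 11.4 RPKM in the HFD library and was listed at 0 in the other. Notch3, a receptor of vascular smooth muscle, likewise had 1.60 RPKM in the HFD library and was listed at 0 in the control library. Of the striated muscle genes, Mb, myoglobin, was listed in the HFD library only, at 3.48 RPKM. Notch3 was picked after its value was seen.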
